A study of Mus musculus with 8 samples.

Results

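Chromatin and transcription regulators are among the genes most often linked to autism and related developmental disorders. A list of 35 such genes, without the genes aimed at by the hairpins, was followed by symbol through 8 libraries of mouse prefrontal cortex. All 35 were found among 23393 gene symbols, 33 under the listed symbol and 2 under an older one (Kmt2a and Kmt2c, deposited as Mll1 and Mll3). All 35 also passed the filter on low counts, as did 17415 genes in total. Membership goes by symbol and uses no measured value, though the list was chosen with earlier results of these data known.

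The tissue came from C57BL6/J mice aged 6 to 8 weeks, injected with adeno-associated virus of serotype 9 (AAV9) and analysed in 4 groups of 2 libraries. The group titled Adnp carried an AAV9 hairpin (shAdnp) and had its own controls injected with AAV9 expressing green fluorescent protein (GFP). The group titled Pogz (shPogz) had a separate pair of GFP controls, and each pair of groups is called a set. The labels call the libraries biological duplicates, name the material as bulk tissue lysate, and do not give the promoter of the virus or the share of cells it reached. In bulk RNA, fewer cells of a type and less RNA per cell cannot be told apart.

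DNA is wrapped around histones, and chromatin regulators decide how open a stretch of it is. Remodellers slide or evict nucleosomes with the energy of ATP, writers and erasers add or remove methyl and other marks on histones and DNA, and readers and corepressors recruit further enzymes to those marks. In the brain such genes are best known from patients who carry a single damaged copy, which shows that many of them are sensitive to dose.

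Total counts in gene symbols ran from 27501722 to 69002749 per library. Neither transcript named in the titles passed the test in its own set. Adnp was at 137 and 111 CPM (counts relative to the library total after TMM scaling) in its controls and 87.2 and 118 in shAdnp (log2 fold change -0.27, SE 0.19, edgeR adjusted p = 0.768). Pogz was at 54.4 and 53.1 CPM in its controls and 49.0 and 37.3 in shPogz (-0.32, SE 0.16, edgeR adjusted p = 0.667). The treatment label of both hairpin groups names Ash1l, which differed by -0.10 (SE 0.14) in shAdnp and 0.11 (SE 0.14) in shPogz. Adnp, Pogz and Ash1l all fell short of the adjusted test, so these values do not show which gene was targeted. Group names were taken from the titles. On a multidimensional scaling of all genes, GFP replicate 1 of the Adnp set (-2.47) and shPogz replicate 2 (2.15) lay farthest apart on the first axis, with the other 6 libraries from -0.66 to 0.80.

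Most of the promoters that could be read were rich in CG dinucleotides. RefSeq windows (GRCm38.p6) were matched by symbol for 26 of the 35 genes, and the first listed window per gene was read over the 250 bases before the start site. No entry was matched for Chd2, Chd3, Chd7, Nsd1, Kdm6b, Asxl3, Auts2, Tcf4 and Wac. The GC box core GGGCGG, a site type of the Sp1 family, stood on either strand in 21 of the 26 windows (80.8%) and in 32.9% of 27025 windows of all genes. The median number of CG dinucleotides was 27 per window against 6 over all genes. The ETS-type core CCGGAAG stood in 1 of the 26 windows and in 7.05% of all. The letters TCGCGA stood in 1 window and in 2.14% of all. For GCGCATG the count was 2, beside 3.32% of all windows, and for the E-box CACGTG it was 0, beside 6.05%. The TATA box core TATAAA stood in 0 of the 26 and in 13% of all windows. Both strands were searched each time. The windows of all genes are not limited to the 17415 genes tested, and the part of expression in these shares was not tested. A match is a description of the letters and not a bound site, and no match says only that the letters are not in this window. The windows printed here were picked to show the range, with every match in capitals and all bases read 5′ to 3′ on the gene's strand. Kmt2c has 12 copies of GGGCGG over both strands. Cul3 is the window that holds TCGCGA, and it has GGGCGG too. Smarca4 has 2 copies of GCGCATG beside its GC boxes. Myt1l has 3 CG dinucleotides and none of the letters searched. Myt1l has 5 windows in the RefSeq table, of which 1 is shown.
Kmt2c, chr5:25498784-25499033, minus strand: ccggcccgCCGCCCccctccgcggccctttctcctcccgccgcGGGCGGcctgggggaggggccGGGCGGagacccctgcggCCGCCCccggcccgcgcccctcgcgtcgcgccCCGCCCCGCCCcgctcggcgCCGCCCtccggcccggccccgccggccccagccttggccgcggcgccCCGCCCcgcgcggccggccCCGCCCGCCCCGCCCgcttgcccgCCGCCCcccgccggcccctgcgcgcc
Cul3, chr1:80340691-80340940, minus strand: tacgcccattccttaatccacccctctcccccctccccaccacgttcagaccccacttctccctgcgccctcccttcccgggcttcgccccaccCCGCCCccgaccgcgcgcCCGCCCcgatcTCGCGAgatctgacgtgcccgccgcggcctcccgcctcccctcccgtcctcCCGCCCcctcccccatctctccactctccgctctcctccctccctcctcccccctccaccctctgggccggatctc
Smarca4, chr9:21615919-21616168, plus strand: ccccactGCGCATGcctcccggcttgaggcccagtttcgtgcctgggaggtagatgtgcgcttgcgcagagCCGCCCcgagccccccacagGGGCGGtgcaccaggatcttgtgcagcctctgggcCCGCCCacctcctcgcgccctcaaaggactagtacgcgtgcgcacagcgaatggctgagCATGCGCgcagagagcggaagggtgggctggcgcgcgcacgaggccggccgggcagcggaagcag
Myt1l, chr12:29528134-29528383, plus strand: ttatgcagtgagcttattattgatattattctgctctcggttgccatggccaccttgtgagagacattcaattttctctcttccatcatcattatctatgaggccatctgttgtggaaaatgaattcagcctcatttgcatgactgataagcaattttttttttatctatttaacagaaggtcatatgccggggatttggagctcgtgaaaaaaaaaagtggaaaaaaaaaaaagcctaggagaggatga

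Most of the regulators had high counts in the control cortex. Their mean in the 4 GFP libraries had a median of 131 CPM, against 16.2 CPM over all genes tested, and ran from 7.95 (Kdm6b) to 721 CPM (Chd3). They are also long, with a median of 14 kb of exon against 4.12 kb over all genes, and these CPM values are not corrected for length. The order of genes below is therefore given as CPM per kb of exon. On that scale Ctnnb1, which encodes the adhesion and Wnt signalling protein beta-catenin, stood highest at 125 ± 10.3 CPM per kb (SD, n = 4). Chd3, an ATPase of the NuRD remodelling complex, followed at 85.4 ± 7.45 CPM per kb (SD, n = 4), and Smarcc2, a scaffold subunit of the BAF remodelling complex, at 50.8 ± 3.58 CPM per kb (SD, n = 4). These 3 genes did not overlap in any control library. At the lower end were Kdm6b (1.14 ± 0.164 CPM per kb, SD, n = 4), Chd7 (1.39 ± 0.246), Auts2 (1.54 ± 0.285) and Asxl3 (1.65 ± 0.256). Neighbours in that order overlapped in their control libraries, while those of Kdm6b lay below those of Asxl3. The exons of Chd2, Smarca2 and Ctnnb1 overlap those of another counted gene. Overlap with any annotated gene, counted or not, covers 19.3%, 0.28% and 15.1% of their exon bases. It covers 22.4% for Hdac4, 7.83% for Ankrd11 and 5.77% for Chd8, where no overlapping gene was found among the counted symbols. Since the strand setting of the counting is not given in the sources used here, the levels of these genes are uncertain. The share of bases does not give the share of reads affected.

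**Figure D1:**
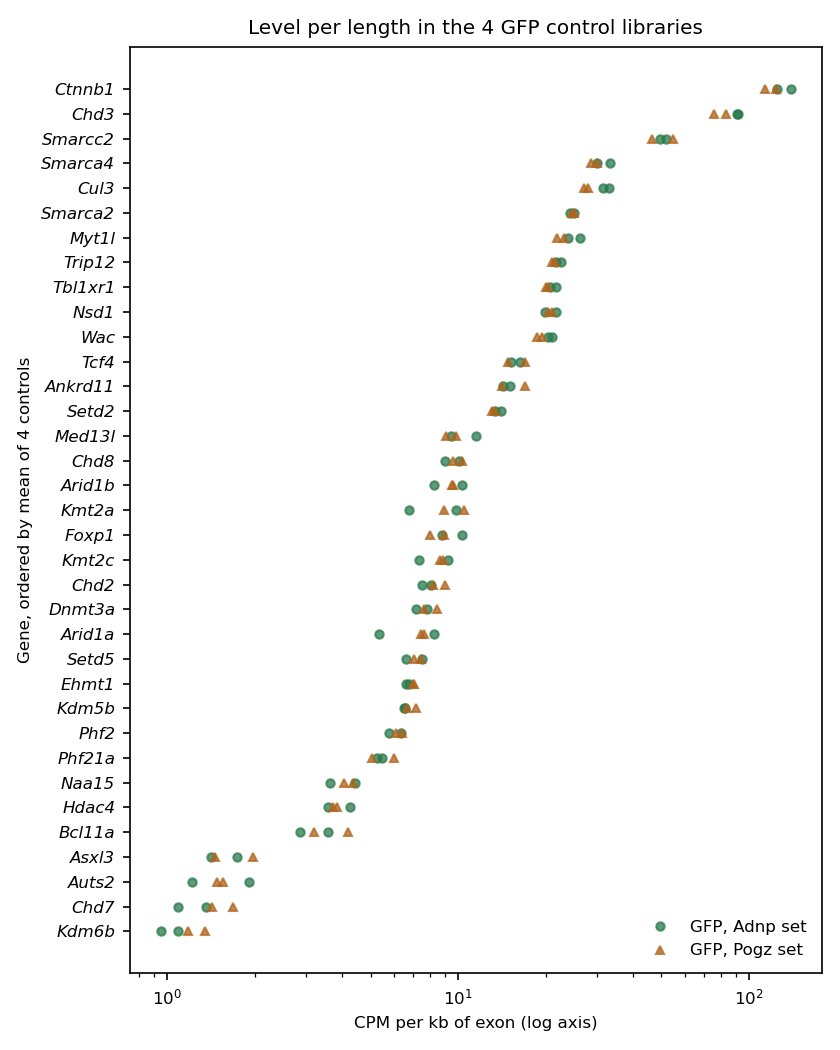
CPM per kb of exon (horizontal, log axis) of the 35 genes (vertical, ordered by their mean) in the 4 GFP control libraries, 1 point per library. Ctnnb1 is highest at a mean of 125 and Kdm6b lowest at 1.14.

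The regulators varied little across the 8 libraries. The ratio of the highest to the lowest library had a median of 1.30 over the 35 genes and 1.49 over all genes tested. It was under 1.5 for 27 of the 35 (77.1%, beside 49.6% of all genes). The 35 genes also have higher counts than most, at a median percentile of 90.2 among the genes tested. The part of count level in this spread was not tested. Setd2, which writes trimethylation of histone H3 lysine 36, was the steadiest at 1.08, its libraries lying between 138.7 and 150.4 CPM. Chd7, a remodeller mutated in CHARGE syndrome, was the most variable at 2.42, followed by Auts2, a partner of a Polycomb repressive complex, at 2.06.

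**Figure D2:**
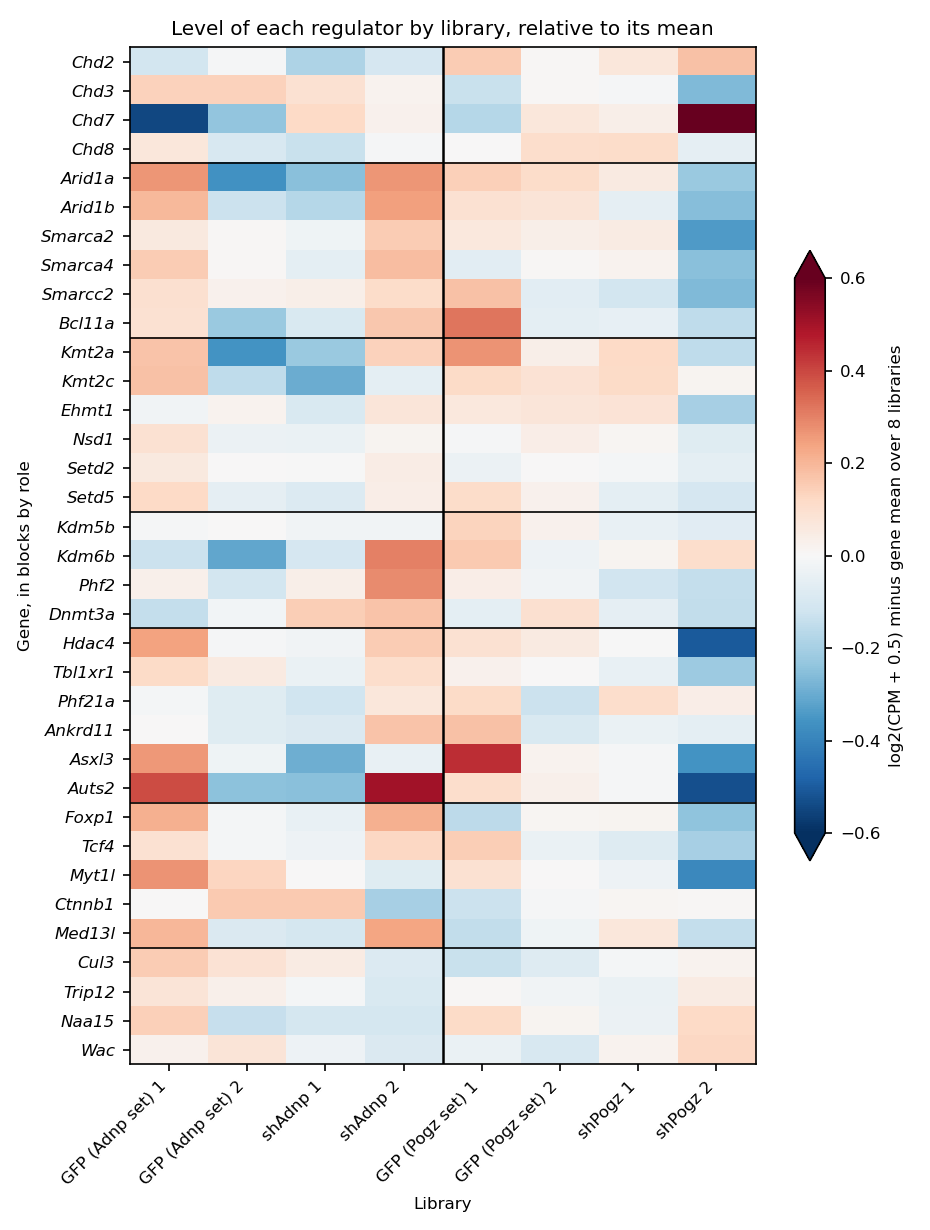
Colour gives log2(CPM + 0.5) of each gene (rows, in blocks by role) minus its mean over the 8 libraries (columns), cut off at 0.6 either way. In the Adnp set, GFP replicate 1 and shAdnp replicate 2 are red together in most rows, and shPogz replicate 2 is the bluest column, with the lowest level for 19 of 35 genes.

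Much of that variation ran between replicates of one group. In the Adnp set, GFP replicate 1 and shAdnp replicate 2 were the 2 highest of the 4 libraries for 21 of 35 genes (60%), a pair that led for 19.7% of all genes tested. Arid1a, the DNA-binding subunit of BAF, was at 95.02 and 61.4 CPM in controls and 66.2 and 95.1 in shAdnp. Auts2 was at 43.6 and 27.8 CPM in controls and 27.8 and 47.2 in shAdnp. Kmt2a, a writer of histone H3 lysine 4 methylation, was at 163.6 and 113.3 CPM in controls and 124.5 and 159.9 in shAdnp. In these genes, of which Arid1a and Kmt2a were named after their values were seen, 1 library of each group was high and the other low, so the groups overlapped fully. In the Pogz set, shPogz replicate 2 was the lowest of all 8 libraries for 19 of the 35 genes (25.5% of all genes).

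Cell type markers and other measures also set some of these libraries apart. The median regulator lay at -0.02, -0.05 and -0.14 (log2, relative to each gene's mean) in GFP replicate 2 of the Adnp set, shAdnp replicate 1 and shPogz replicate 2, and between -0.00486 and 0.09 elsewhere. The 8 measured oligodendrocyte markers summed to 2579 and 3853 CPM in the Adnp-set GFP pair and to 4180 and 2026 CPM in shAdnp. Those sums were 2601 and 2942 CPM in the Pogz-set GFP pair, against 3000 and 4418 CPM in shPogz. The 3 libraries in which the regulators were lowest were those with the highest sums. Their regulator levels are not clearly apart from the rest, with GFP replicate 2 of the Adnp set at -0.0167 and shPogz replicate 1 at -0.00486. The SD of these medians within groups was 0.0803. Oligodendrocyte markers are also 1 of several marker lists that were summed. The 8 excitatory neuron markers summed to 3331 and 2919, 2632 and 3338, 2539 and 3015, and 2795 and 1873 CPM in the same order, with shPogz replicate 2 lowest and no such match over the other libraries. In shPogz replicate 2 the 8 interferon response markers were also highest (1912 CPM; 68.1 to 622 elsewhere) and the 8 astrocyte markers lowest (4354 CPM; 5420 to 6205 elsewhere). No marker of these 4 lists was at 0 in any library. In shAdnp replicate 1, Rn45s, a ribosomal RNA precursor, held 7.62% of counts, and in no other library more than 0.7405%. The part of these measures in the levels of the regulators was not tested.

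The comparison of shAdnp with its controls gave 0 of 35 regulators past edgeR's quasi-likelihood test adjusted over all genes, as it gave 0 of 17415 genes (0%). The smallest adjusted p of a regulator was 0.581 by edgeR, and DESeq2 also called 0 of the 35 but 418 of 16478 genes (2.54%). By an unadjusted p under 0.05, edgeR gave 1 regulator, Dnmt3a, and 8.36% of all genes. The median log2 fold change of the list was -0.0135, with 20 genes below 0 (57.1%; 52.3% of all genes) and 15 above, beside a median of -0.0124 over all genes. The data limited the size of a change more than for most genes. The 95% interval lay within a 1.5-fold change either way for 30 of the 35 (85.7%, beside 53.2% of all genes), and within 2-fold for all 35. The 1.5-fold share was 85.4% among the 96 partner genes described below, so it is not particular to the list. The 35 genes also have higher counts than most (median 131 against 16.2 CPM in controls, not corrected for length). The part of count level was not tested. Both shAdnp libraries lay below both controls for 7 of the 35 (21% of all genes did so) and above both for 4, namely Chd7, Kdm6b, Phf2 and Dnmt3a (20.4% of all genes).

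In shPogz, 27 of the 35 regulators had a log2 fold change below 0 (77.1%; 53.6% of all genes), with a median of -0.10 against -0.0222 over all genes. Again 0 of 35 passed edgeR adjusted over all genes, as did 0 of 17415 genes (0%), and the smallest adjusted p of a regulator was 0.667. By an unadjusted p under 0.05, edgeR gave 0 regulators and 6.7% of all genes, and DESeq2 called 0 regulators and 108 genes (0.655%). Both shPogz libraries lay below both controls for 12 of the 35 (21.3% of all genes) and above both for 3, Ctnnb1, Cul3 and Wac (19% of all genes). The interval lay within 1.5-fold for 27 of the 35 (77.1%, beside 50.3% of all genes and 79.2% of the partner genes). It lay within 2-fold for 34, the exception being Auts2. Without shPogz replicate 2 the median was -0.0369. With genes divided by exon length into 5 bins of about equal size, 28 of the 35 lie in the longest bin (7.2 to 123 kb). Over all genes of that bin the median was -0.0658 in shPogz and -0.0475 in shAdnp, so genes of like length were also below 0. The part of length was not tested further.

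**Figure D3:**
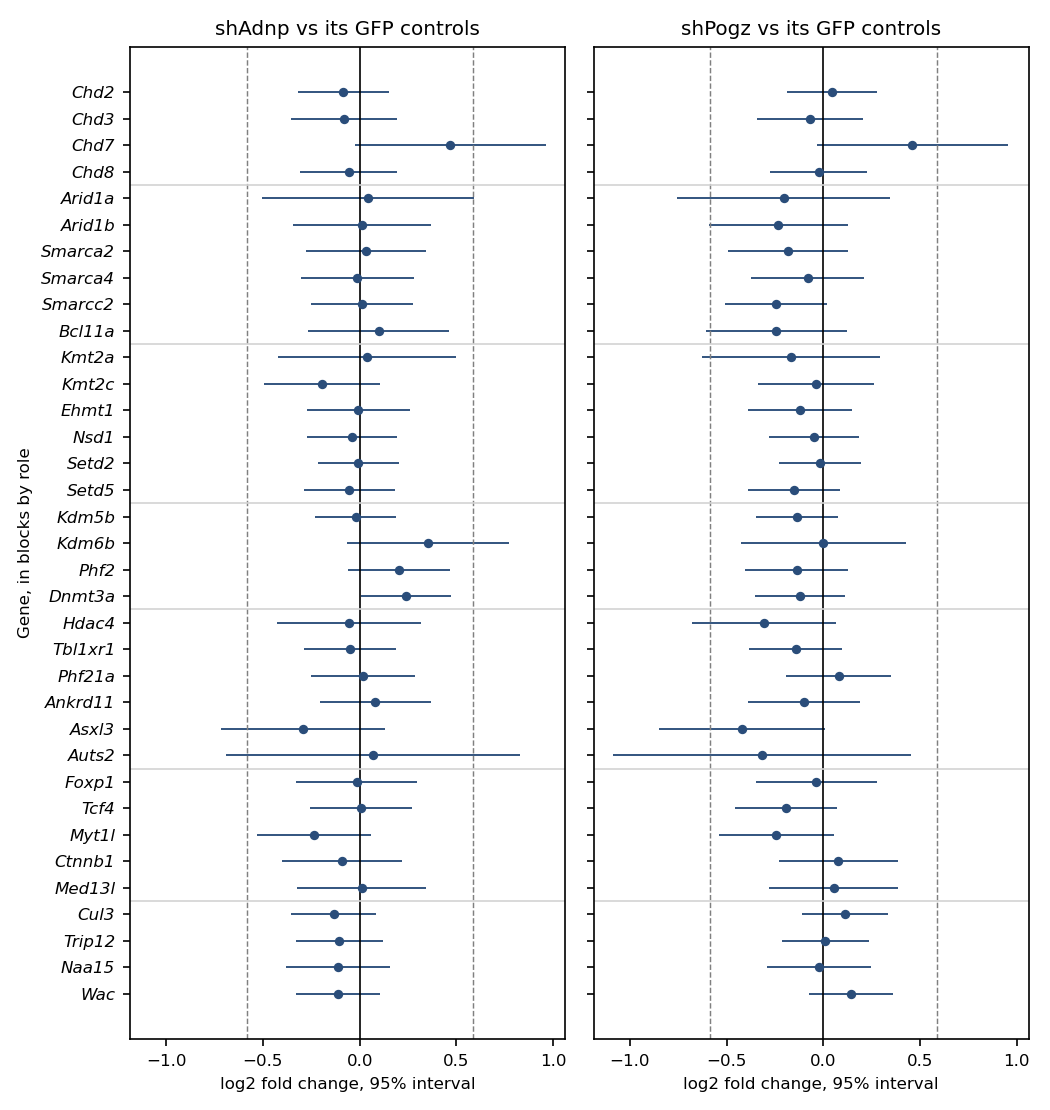
Points are log2 fold changes of the 35 genes (rows, in blocks by role) against the GFP controls of the same set, bars are 95% intervals of the edgeR model with 2 libraries per group, and dashed lines mark 1.5-fold. In shPogz 27 of 35 points lie left of 0, in shAdnp 20.

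Among the CHD remodellers, Chd7 had the highest log2 fold change of the list in both sets. Chd7 (chr4:8690406-8867659, mm10, plus strand) was at 15.1 and 18.8 CPM in the Adnp-set controls and 24.2 and 22.7 in shAdnp. In the Pogz set it was at 19.7 and 23.3 CPM in controls and 22.8 and 36.5 in shPogz. The shAdnp libraries lay above both of their controls, while in the Pogz set replicate 2 alone lay above the controls and replicate 1 between them. The log2 fold changes were 0.47 (SE 0.22, 95% interval -0.02 to 0.96, edgeR adjusted p = 0.620) and 0.46 (SE 0.22, -0.03 to 0.95, edgeR adjusted p = 0.667). Averaged over the sets, with a term for set, the value was 0.46 (SE 0.14, 0.15 to 0.78, unadjusted p = 0.00885, edgeR adjusted p = 0.239). DESeq2 gave that average an adjusted p of 0.0496, the 1 regulator it called (3.99% of all genes). Over the alternatives the average ran from 0.20 to 0.60 with edgeR, DESeq2 or voom adjusted p from 0.0253 to 0.999, the lowest being that without shPogz replicate 1. Without shPogz replicate 2 the value in the Pogz set was 0.08. The 10 measured microglial markers, none at 0 in any library, summed to 492 and 624 CPM in GFP and 1483 and 995 CPM in shAdnp; in the other set the sums were 809 and 839 CPM in GFP and 916 and 1425 CPM in shPogz. Their part in the value of Chd7 was not tested. Chd2, Chd3 and Chd8, the last a remodeller with some of the strongest genetic links to autism, lay between -0.08 and 0.04 in both sets.

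The BAF complex slides nucleosomes, and the side of 0 on which its listed subunits stood rested in part on single libraries. Of the 6, 5 lay above 0 in shAdnp (median 0.02; from -0.01 to 0.10) and all 6 lay below 0 in shPogz (median -0.22; from -0.24 to -0.08). Without shPogz replicate 2 the median in that set was -0.10 with 5 of 6 below 0, Smarca4 standing at 0.05, and without GFP replicate 1 it was -0.13 with 6 below. In the Adnp set the median was 0.14 without GFP replicate 1 and 0.18 without shAdnp replicate 1, but -0.07 without GFP replicate 2 and -0.09 without shAdnp replicate 2. The 6 genes comprise the alternative ATPases Smarca2 and Smarca4, the DNA-binding subunits Arid1a and Arid1b, the scaffold Smarcc2 and the zinc finger subunit Bcl11a. Tested as a difference between the 2 responses, the 6 values had a median of -0.25 and the smallest edgeR adjusted p was 0.978. In shPogz, 3 of the 6 (Arid1b, Smarcc2 and Arid1a) had both libraries below both controls (21.3% of all genes).

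The histone methyltransferase family lay in a narrow band around 0. Of its 6 members, 5 lay below 0 in shAdnp (median -0.02) and 6 in shPogz (median -0.08), with 0 past the test in either. With 1 library of the set left out, the median ran from -0.12 to 0.04 in shAdnp, and it was -0.000469 in shPogz without replicate 2, with 3 of 6 below 0. Kmt2c, a writer of histone H3 lysine 4 methylation at enhancers, had the lowest value of the family in shAdnp. It was at 187.0 and 148.7 CPM in controls and 134.6 and 159.0 in shAdnp, so 1 control lay between the hairpin libraries. The log2 fold change was -0.19 (SE 0.13, -0.49 to 0.11, edgeR adjusted p = 0.765) in shAdnp and -0.04 (SE 0.13) in shPogz. The other members, Kmt2a, Ehmt1 (histone H3 lysine 9), Nsd1 and Setd2 (lysine 36) and Setd5, a SET domain protein, lay between -0.17 and 0.04 in both sets.

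The erasers and the DNA methyltransferase stood above 0 in shAdnp (3 of 4; median 0.22) and at or below 0 in shPogz (4 of 4; median -0.13). These medians were 0.11 without shAdnp replicate 2 and -0.08 without GFP replicate 1 of the Pogz set. Dnmt3a, which places new methyl groups on DNA, including the non-CG methylation that neurons gain after birth, was at 119.3 and 130.3 CPM in the Adnp-set controls and 146.2 and 148.3 in shAdnp. In the Pogz set it was at 126.7 and 141.0 CPM in controls and 127.0 and 119.1 in shPogz. Both shAdnp libraries lay above their controls, whereas in the Pogz set replicate 1 lay just above the lower control and replicate 2 below both. The log2 fold change was 0.24 (SE 0.10, 0.00 to 0.47, unadjusted p = 0.0463, edgeR adjusted p = 0.581) in shAdnp and -0.12 (SE 0.10, -0.36 to 0.11, edgeR adjusted p = 0.742) in shPogz. The difference between these responses was -0.36 (SE 0.15, -0.69 to -0.03, unadjusted p = 0.0360, edgeR adjusted p = 0.978), the 1 of 35 genes with an unadjusted p under 0.05 there, beside 3.51% of all genes. No gene of the list passed the adjusted test of that difference (0% of all genes did).

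Kdm6b, an eraser of repressive methylation on histone H3 lysine 27, was the least abundant regulator, at 7.603 and 6.64 CPM in the Adnp-set controls and 7.77 and 10.4 in shAdnp. In the Pogz set its libraries were at 9.37 and 8.17 CPM in controls and 8.47 and 9.04 in shPogz, inside the range of the controls. The log2 fold change was 0.35 (SE 0.19, -0.07 to 0.77, edgeR adjusted p = 0.690) in shAdnp and -0.00016 (SE 0.19) in shPogz. Phf2, an eraser of histone H3 lysine 9 methylation named after its values were seen, was at 35.01 and 31.7 against 35.2 and 41.7 CPM in the Adnp set, and at 35.2 and 33.7 against 31.6 and 31.0 CPM in the Pogz set. Its hairpin libraries therefore lay above their controls in one set and below them in the other. Kdm5b, which removes histone H3 lysine 4 methylation, lay below its controls in both sets, by -0.02 (SE 0.09) and -0.14 (SE 0.09).

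Corepressors, readers and scaffolds held the lowest values. Asxl3 (chr18:22344883-22530227, mm10, plus strand), a scaffold of the deubiquitinase that acts on histone H2A, was at 26.9 and 22.0 CPM in the Adnp-set controls and 18.2 and 21.7 in shAdnp. In the Pogz set it was at 30.6 and 22.8 CPM in controls and 22.3 and 17.4 in shPogz. Both hairpin libraries lay below both controls in each set, though the highest hairpin library was close to the lowest control each time. The log2 fold changes were -0.29 (SE 0.19, -0.72 to 0.13, edgeR adjusted p = 0.747) and -0.42 (SE 0.19, -0.85 to 0.01, edgeR adjusted p = 0.667). The average was -0.36 (SE 0.13, -0.64 to -0.07, unadjusted p = 0.0188, edgeR adjusted p = 0.304). Without shPogz replicate 2 the Pogz-set value was -0.25, and without GFP replicate 1 of that set -0.18.

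Hdac4, a class IIa histone deacetylase that moves between nucleus and cytoplasm in neurons, was at 60.4 and 58.8 CPM in the Pogz-set controls and 56.6 and 39.8 in shPogz. Both lay below the controls, and replicate 2 stood apart from the other 3 (-0.31, SE 0.17, -0.68 to 0.07, edgeR adjusted p = 0.667). In the Adnp set Hdac4 differed by -0.05 (SE 0.16). Auts2 was at 35.7 and 33.8 CPM in the Pogz-set controls and 33.0 and 22.9 in shPogz, with the widest interval of the list (-0.32, SE 0.32, -1.09 to 0.45, edgeR adjusted p = 0.785). Without shPogz replicate 2, Hdac4 and Auts2 stood at -0.08 each in that comparison. The remaining members, Tbl1xr1 (a subunit of the NCoR corepressor), Phf21a (a reader of unmethylated histone H3 lysine 4) and Ankrd11, lay between -0.14 and 0.08 in both sets.

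Myt1l was the transcription factor with both hairpin libraries below both controls in each set. It keeps non-neuronal genes silent in neurons. Myt1l (chr12:29528384-29923213, mm10, plus strand) was at 367.9 and 333.7 CPM in the Adnp-set controls and 305.5 and 290.3 in shAdnp. In the Pogz set it was at 324.9 and 306.0 CPM in controls and 299.4 and 233.3 in shPogz, where replicate 2 was far below the others. The log2 fold changes were alike in size, -0.24 (SE 0.13, -0.53 to 0.06, edgeR adjusted p = 0.709) and -0.24 (SE 0.13, -0.54 to 0.05, edgeR adjusted p = 0.667). The average was -0.24 (SE 0.09, -0.43 to -0.05, unadjusted p = 0.0199, edgeR adjusted p = 0.306), and without shPogz replicate 2 the value in the Pogz set was -0.07. The 8 pan-neuronal markers, none at 0, summed to 8779 and 8626 CPM against 7937 and 7883 in the Adnp set and to 7278 and 7388 against 7205 and 6004 in the Pogz set. The sum was lower in the hairpin libraries of both sets, as Myt1l was. Marker by marker, 5 of the 8 lay below 0 and 3 above in shAdnp, and all 8 lay below 0 in shPogz. The part of these markers in the value of Myt1l was not tested. Foxp1, Tcf4, Ctnnb1 and Med13l, the last a subunit of the Mediator kinase module, lay between -0.19 and 0.08 in both sets.

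**Figure D4:**
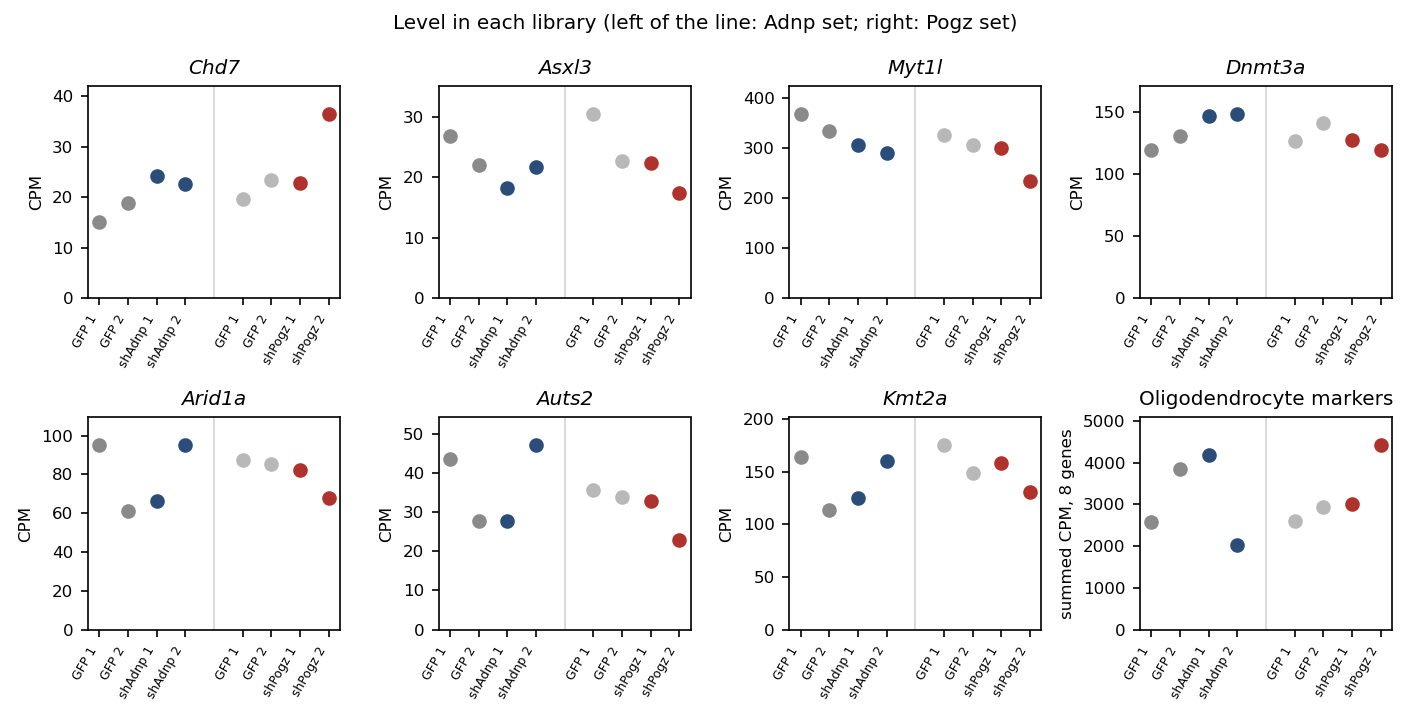
CPM per library (points; grey GFP controls, blue shAdnp, red shPogz) of 7 genes, and the summed CPM of 8 oligodendrocyte markers. Myt1l and Asxl3 lie below the controls in both sets, while Arid1a, Auts2 and Kmt2a are high in 1 library of each group of the Adnp set, the libraries with the lower oligodendrocyte sums.

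Ubiquitin ligase and acetyltransferase genes lay on different sides of 0 by small amounts. All 4 lay below 0 in shAdnp (median -0.11), and 3 of 4 lay above 0 in shPogz (median 0.06). Without shAdnp replicate 2 the first median was -0.07, and without shPogz replicate 2 the second was 0.03, with 2 of 4 above 0. Cul3, the core of a family of ubiquitin ligases, was at 160.6 and 153.4 against 149.4 and 136.4 CPM in the Adnp set and at 131.6 and 136.7 against 143.1 and 146.6 CPM in the Pogz set. Wac, an adaptor for ubiquitination of histone H2B, was at 120.1 and 124.5 against 115.3 and 111.1 CPM, and at 114.8 and 110.3 against 119.8 and 128.7 CPM. In both genes the hairpin libraries lay below the controls in the Adnp set and above them in the Pogz set. The log2 fold changes were -0.14 (SE 0.10) and 0.11 (SE 0.10) for Cul3, and -0.11 (SE 0.10) and 0.14 (SE 0.10) for Wac. The differences between responses were 0.25 (SE 0.14, -0.07 to 0.56) for Cul3 and 0.25 (SE 0.14, -0.05 to 0.56) for Wac, with an edgeR adjusted p of 0.978 each. Trip12, another ubiquitin ligase, and Naa15, the anchor of an N-terminal acetyltransferase, differed by -0.11 each in shAdnp and by 0.01 and -0.02 in shPogz.

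The control pairs also differed from each other. Between the Pogz-set and the Adnp-set GFP libraries the log2 fold changes of the 35 genes ran from -0.23 to 0.35, and 0 passed the adjusted test (0.00574% of all genes). Cul3 was the 1 regulator with an unadjusted p under 0.05 (-0.23, SE 0.10, unadjusted p = 0.0449, edgeR adjusted p = 0.674), beside 7.35% of all genes. Chd7 differed by 0.35 (SE 0.22) between control pairs, against 0.47 and 0.46 for the hairpins. Set and any batch cannot be told apart here.

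**Figure D5:**
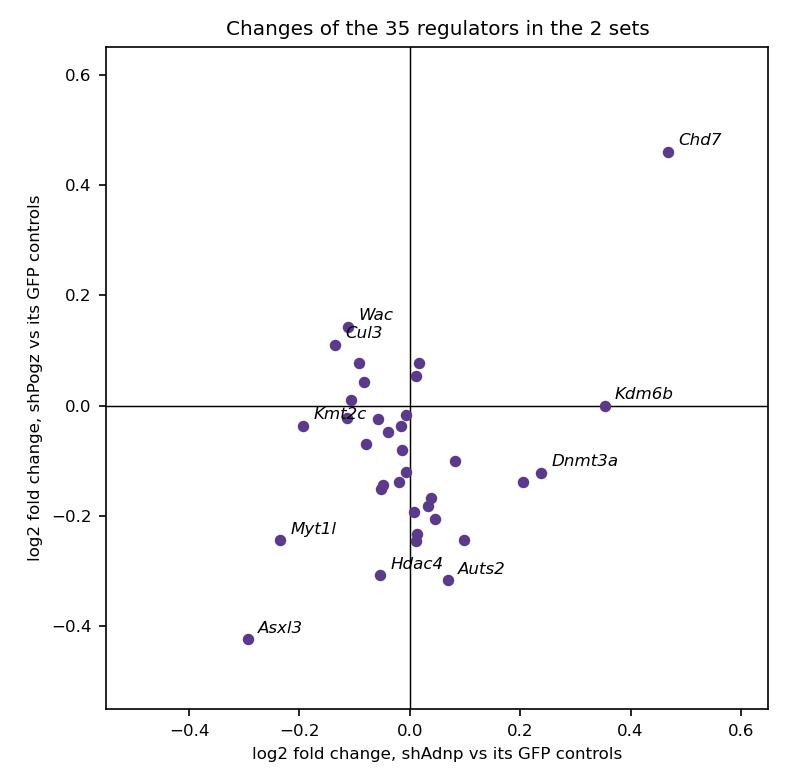
Each point is 1 of the 35 genes, with its log2 fold change in shAdnp (horizontal) and in shPogz (vertical), each against separate GFP controls. Chd7 stands alone at the upper right (0.47 and 0.46), and Asxl3 and Myt1l at the lower left.

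Across the sets, which have separate controls, 15 of the 35 genes were below 0 in both (42.9%; 32.3% of all genes), 3 were above 0 in both (8.57%; 26.4%) and 17 differed in sign. Kdm5b, Asxl3 and Myt1l had both hairpin libraries below both controls in each set (8.57%; 5.31% of all genes), and 0 genes lay above in each (7.12% of all genes). Pearson's r of the log2 fold changes was 0.33 and Spearman's rho -0.15 over the 35 genes, which share libraries and are not replicates. In the average over both sets 28 of 35 were below 0 (80%; 55.3% of all genes), with a median of -0.0635 against -0.0226 over all genes. By the adjusted edgeR test 0 of 35 passed (0% of all genes). Chd7, Asxl3 and Myt1l had an unadjusted p under 0.05, 3 of 35, where 12.5% of all genes did. Without both GFP replicate 1 of the Adnp set and shPogz replicate 2, the libraries farthest apart, the median of the average was 0.0089, with 19 genes above 0.

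The same complexes were then read through a wider list of 96 partner genes. None passed the adjusted edgeR test in shAdnp or shPogz (0% of all genes in each). Below 0 were 52 of the 96 in shAdnp (54.2%, beside 52.3% of all genes, median -0.0145). In shPogz 54 were below 0 (56.2%, beside 53.6% of all genes, median -0.0465). Among 22 further BAF and PBAF subunits, 14 lay below 0 in shAdnp and 13 in shPogz (medians -0.0158 and -0.0658). Of 13 partners acting on histone H3 lysine 9 and 36 or on DNA methylation, 12 lay below 0 in shPogz (median -0.15) and 8 in shAdnp (median -0.07). Other lists stood mostly above 0 in shPogz: 5 of 6 of the Mediator kinase module, 5 of 7 Polycomb and H2A deubiquitinase genes and 6 of 8 paralogous transcription factors. Below 0 there were 6 of 8 NCoR and class IIa deacetylase genes, 10 of 16 histone H3 lysine 4 methylation genes and 8 of 16 CHD and NuRD genes.

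The partners with the smallest unadjusted p did not pass the adjusted edgeR test. Smarcd2, a BAF subunit, was at 12.4 and 14.6 CPM in controls and 17.5 and 17.7 in shAdnp (0.38, SE 0.13, edgeR adjusted p = 0.420). Ccnc, the cyclin of the Mediator kinase module, was at 40.5 and 44.6 CPM in controls and 37.5 and 31.3 in shAdnp (-0.30, SE 0.12, edgeR adjusted p = 0.514). In both genes the hairpin libraries lay outside the range of the controls, which picking by the smallest p favours. Of all genes, 20.4% lay above and 21% below both controls in shAdnp. In shPogz, the BAF subunit Dpf2 was at 29.4 and 30.4 CPM in controls and 35.3 and 38.1 in shPogz (0.29, SE 0.11, edgeR adjusted p = 0.667). The remodeller Chd6 was at 228.7 and 193.3 CPM in controls and 186.3 and 162.1 in shPogz (-0.28, SE 0.12, edgeR adjusted p = 0.667). Both again lay outside the controls, beside 19% of all genes above and 21.3% below in shPogz. The other partners that the rule names in these comparisons were Gatad2a (0.23, SE 0.11) and Kdm6a (-0.21, SE 0.11) in shAdnp, and Pcgf5 (0.36, SE 0.14) and Foxp4 (-0.30, SE 0.14) in shPogz. For the difference between responses it names Ccnc (0.54, SE 0.17), Pcgf5 (0.485, SE 0.19), Tet3 (-0.40, SE 0.21) and Ehmt2 (-0.29, SE 0.16), with an edgeR adjusted p of 0.978 each. For the average it names Ss18 (0.23, SE 0.08), Dpf2 (0.20, SE 0.08), Actl6b (-0.19, SE 0.08) and Chd6 (-0.18, SE 0.08), the smallest edgeR adjusted p being 0.313.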

How the data were processed

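RNA counts of 8 mouse prefrontal cortex libraries, 2 per group, were analysed. The authors deposited whole-number read counts for each gene symbol. The submitters' processing notes list STAR, featureCounts, DESeq2 and mm10, while Cutadapt and TopHat2 with RefSeq mRNAs appear in the labels' protocols. Per the labels' protocols, stranded total RNA libraries were made after ribosomal RNA depletion from 1 µg of RNA. How strand and multiply matching reads were handled is not given in the sources used here. Groups come from the titles. The series text speaks of 3 hairpin mice, and 2 libraries per group were analysed here. The second Pogz library is numbered 3 in its column, per the file headers.

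In each library, 25 identifiers turned into dates (0.306% to 0.336% of counts) and 2 blank identifiers were left out. Counts were fitted in R 4.3.3 with edgeR 4.0.16: filterByExpr with a minimum count of 10, TMM scaling, robust quasi-likelihood over all 8 libraries (4 residual degrees of freedom, common biological variation 0.171). P-values were adjusted over 17415 genes by Benjamini-Hochberg at 0.05. They measure the spread between these libraries. The steps were tested on simulated data. Exon lengths and coordinates come from GENCODE M21 (GRCm38, the mm10 assembly), and promoters from RefSeq (GRCm38.p6).

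The 35 genes, the partner lists (96 of 97 matched; Kmt2d shares an older symbol with Kmt2b) and the marker lists were chosen with earlier results of these data known. Values per library are given for genes with an unadjusted p under 0.05 in either hairpin comparison, their average or their difference, and for the 3 lowest and 3 highest in each hairpin comparison. Partners named are the 2 with the smallest p each way in each hairpin comparison, their difference and their average. Alternatives were DESeq2 1.42.0, limma-voom (limma 3.58.1), other scalings and filters, the libraries of 1 set alone, a block for replicate number, and leaving out each replicate in turn. Leaving out the 2 libraries farthest apart together was added after the data were seen.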

Additional observations from a re-analysis of the deposited data

How the results depend on the processing

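No regulator passed the edgeR or voom test under the alternatives run, except Chd7 in the average over both sets. For that average DESeq2 called 1 of the 35, and so did edgeR without shPogz replicate 1 (0.60, edgeR adjusted p = 0.0253; range 0 to 1 with a replicate left out). Over all genes, where edgeR called 0, 0, 0, 0 and 1, DESeq2 called 418 (shAdnp), 108 (shPogz), 3 (their difference), 704 (average) and 74 (GFP pairs). With the replicate number as a block, edgeR called 175, 31 and 405 genes for shAdnp, shPogz and the average, and 0 of the 35. Over the genes tested, deviations of same-numbered libraries from their group means correlated by 0.00212 in the Adnp set and 0.0307 in the Pogz set. With 2 libraries per group this cannot show whether the numbers pair the samples. With no filter on low counts, 6 genes were called between the GFP pairs. Without both GFP replicate 1 of the Adnp set and shPogz replicate 2, counts were 8 for shPogz, 2 for the average and 3 for the GFP pairs.

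With 1 replicate left out, which assumes that a lone library varies like the other groups, gene counts ran from 0 to 8 for shAdnp (8 without shAdnp replicate 1), from 0 to 153 for shPogz, from 0 to 4 for the difference, from 0 to 556 for the average (153 and 556 without shPogz replicate 1) and from 0 to 6 for the GFP pairs. The median of the 35 genes ran from -0.158 to 0.0122 for the difference and from -0.069 to 0.0861 for the GFP pairs. In shAdnp it ran from -0.0854 to 0.0636, so its sign rests on single libraries, in shPogz from -0.13 to -0.0369, and in the average from -0.0729 to -0.00922. Over the alternatives, 12 of the 35 genes kept their sign in shAdnp and 20 in shPogz.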
